A study of Mus musculus with 36 samples.

Results

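Serotonin neuron genes were compared between the 4 libraries of the periaqueductal grey (PAG) with the highest and the 4 with the lowest level of Tph2, the enzyme that starts serotonin synthesis in brain. The 8 libraries were chosen by ranking the 12 PAG libraries by Tph2, whatever the surgery, out of 36 libraries in the series. The level was measured in RPKM, reads per kilobase of gene, per M (mega) assigned reads. Tph2 itself is left out of the results. The high-Tph2 set held 1 library made after spared nerve injury (SNI 36) and 3 made after sham surgery (sham 25, 26 and 29). The low-Tph2 set held 3 SNI libraries (31, 32 and 34) and 1 sham library (sham 30). Surgery and Tph2 rank were therefore partly joined. All animals were adult male C57BL/6 mice, and no genetic change is given in the labels. Tissue was taken 2.5 months after sham surgery or after SNI, a cut of sciatic nerve branches that serves as a model of lasting neuropathic pain. Each of the 6 combinations of surgery with PAG, prefrontal cortex (PFC) or nucleus accumbens (NAc) had 6 libraries. RNA was pooled before library making, per the labels' protocols, with the number of animals per library not given, so the spread between libraries may be partly technical.

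The dorsal raphe nucleus holds the largest group of serotonin neurons in the brain and lies in the ventral PAG at the midline. These neurons make serotonin from tryptophan by hydroxylation and decarboxylation, load it into vesicles through Slc18a2 and take it back up through Slc6a4. Their identity depends on transcription factors that include Fev (Pet-1) and Lmx1b. Many dorsal raphe serotonin neurons also carry Slc17a8, the vesicular glutamate transporter VGLUT3. In bulk tissue, fewer cells of a type and less RNA per cell cannot be told apart.

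Tph2 stood at 186, 176, 153 and 152 RPKM in the high-Tph2 libraries sham 29, sham 26, SNI 36 and sham 25, and at 122, 110, 62.2 and 52.7 RPKM in the low-Tph2 libraries sham 30, SNI 32, SNI 34 and SNI 31. The 4 libraries between them (SNI 33, SNI 35, sham 27 and sham 28) ran from 152 to 139 RPKM. The upper boundary, between sham 25 and SNI 33, was 0.480 RPKM wide, within the counting error of 1.21 RPKM (1 SE) of sham 25, and the lower one was 17.1 RPKM wide. Tph2 was covered by 6018 reads in SNI 31 and 18974 reads in sham 29. SNI 31 and SNI 34 stood apart below all other PAG libraries, and the call counts, r, ratio ranges and main serotonin differences are given also without them. Depth was 29.1 to 35.8 M reads in high-Tph2 and 38.5 to 44.1 M reads in low-Tph2 libraries, without overlap; RPKM divides by depth, and the part of depth in the results was not tested. The slope of a library's log2 values on gene GC content ran from -0.109 to 0.218 per 10 percentage points in high-Tph2 libraries and from -0.115 to 0.132 in low-Tph2 libraries, which overlapped. By surgery it did not overlap, at -0.217 to -0.0246 in the sham and 0.0359 to 0.218 in the SNI libraries of PAG. Ordering the libraries by Slc6a4 gave the same 4 and 4.

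The promoters of 4 genes are shown because these genes carry the serotonin neuron programme: the reuptake and vesicle transporters and both transcription factors. Each is the 250 bases before the RefSeq start on GRCm38.p6, written 5′ to 3′ on the gene's strand. They are chr11:76998347-76998596 (+) for Slc6a4, chr19:59260628-59260877 (+) for Slc18a2, chr1:74885409-74885658 (-) for Fev and chr2:33641099-33641348 (-) for Lmx1b. Capitals mark GGAAG or its reverse complement CTTCC, a longer form of the GGAA core recognised by ETS factors, the family of Fev. GGAA followed by another base is not marked.
Slc6a4: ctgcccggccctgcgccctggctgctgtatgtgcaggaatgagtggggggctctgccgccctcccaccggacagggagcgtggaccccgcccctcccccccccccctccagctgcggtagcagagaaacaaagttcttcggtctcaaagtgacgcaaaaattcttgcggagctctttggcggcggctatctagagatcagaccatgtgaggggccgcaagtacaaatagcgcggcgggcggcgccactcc
Slc18a2: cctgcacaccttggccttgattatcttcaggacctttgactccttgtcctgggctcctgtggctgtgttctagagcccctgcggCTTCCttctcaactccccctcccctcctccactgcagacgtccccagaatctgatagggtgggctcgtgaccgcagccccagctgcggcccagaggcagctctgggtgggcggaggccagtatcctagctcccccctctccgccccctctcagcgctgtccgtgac
Fev: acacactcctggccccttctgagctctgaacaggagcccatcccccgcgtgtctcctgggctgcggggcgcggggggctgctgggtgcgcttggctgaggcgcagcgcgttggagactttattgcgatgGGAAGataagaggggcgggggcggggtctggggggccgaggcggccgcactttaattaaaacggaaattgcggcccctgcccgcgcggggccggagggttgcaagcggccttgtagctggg
Lmx1b: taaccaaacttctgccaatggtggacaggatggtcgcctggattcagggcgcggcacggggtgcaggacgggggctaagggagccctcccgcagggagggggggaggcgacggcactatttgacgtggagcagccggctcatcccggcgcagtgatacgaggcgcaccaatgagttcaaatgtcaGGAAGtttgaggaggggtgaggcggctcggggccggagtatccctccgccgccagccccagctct
GGAAG or CTTCC stood in 3 of the 4 windows, against 64.1% of 32851 mouse promoters of the same length, searched on both strands. The Slc6a4 window had neither, but it holds an unmarked GGAA. These letters are common, and a match is not a site.

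Genes were called higher or lower where the 4 high-Tph2 libraries did not overlap the 4 low-Tph2 libraries and the means of log2(RPKM + 0.5) differed by at least 1.5-fold. Since the libraries were picked by a measured gene, these values are a description without a test. Of 15591 genes whose average over the 12 PAG libraries reached 0.5 RPKM, 27 were called higher in high-Tph2 libraries, which is 0.173% of the genes, and 4 were called lower, which is 0.0257%. Without a fold limit, 194 genes (1.24%) lay wholly above and 156 (1%) wholly below. The median difference over all genes was -0.01 on the log2 scale. Protein-coding genes made up 16 of the 27, small RNA genes 8 and other transcripts 3. Of the 41 genes in 5 serotonin lists (synthesis, transporters, breakdown, transcription factors and receptors), 38 passed the filter. In 7 of them the high-Tph2 libraries were called higher, in 0 lower: Slc6a4, Slc18a2, Slc17a8, Ddc, Gch1, Gchfr and Fev. The list median was 0.11, with 29 genes above 0 and 9 below. Over all 15591 genes, 7204 lay above 0 and 8387 below. Without SNI 31 and SNI 34, 2 of the 7 calls were left, Slc6a4 and Slc17a8, and 32 genes were called higher in all. Without these 2 libraries the log2 differences were 0.60 for Slc6a4, 0.41 for Slc18a2, 0.91 for Slc17a8, 0.42 for Ddc, 0.47 for Gch1, 0.53 for Gchfr and 0.48 for Fev, all smaller than the values over 8 libraries given with each gene. With the GC trend removed from each library, 6 of the 7 were left and Fev overlapped.

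**Figure D1:**
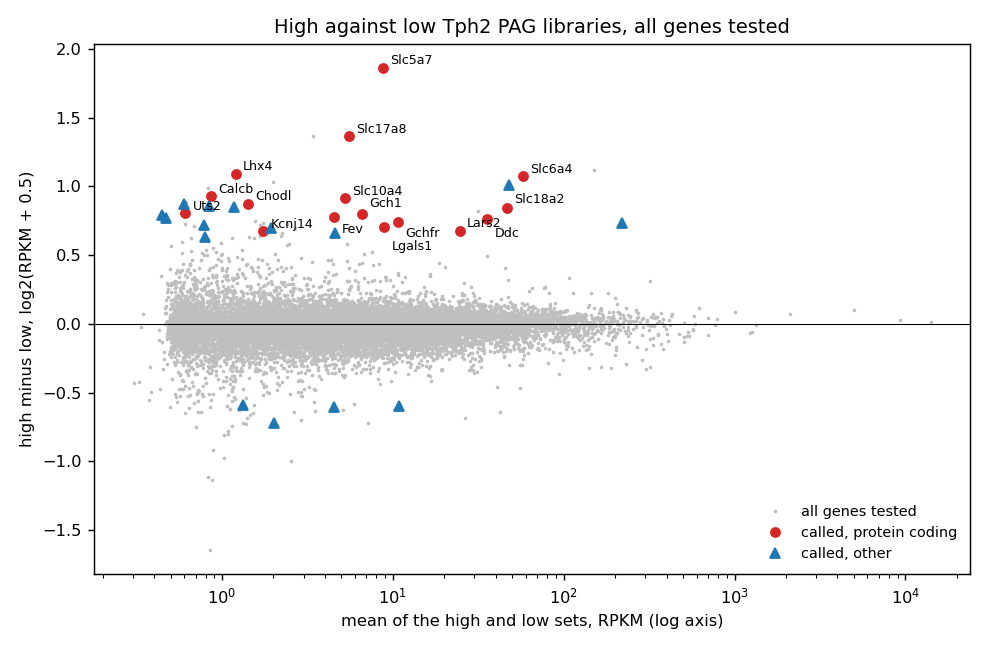
Difference of mean log2(RPKM + 0.5), high minus low Tph2 libraries (y axis), against mean RPKM on a log axis (x axis), for all 15591 genes tested. Red circles are the 16 protein-coding genes called, blue triangles the other called transcripts; the red circles lie on the upper side, and all 4 genes called lower are triangles.

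Transporters showed the largest serotonin gene differences. Slc6a4, the serotonin reuptake transporter on chromosome 11 (76998603-77032340, + strand, GENCODE M21 on the same build), had 82.9, 80.2, 75.9 and 70.8 RPKM in the high-Tph2 libraries sham 29, sham 26, SNI 36 and sham 25, against 51.4, 50.4, 27.9 and 24.3 RPKM in the low-Tph2 libraries sham 30, SNI 32, SNI 34 and SNI 31. The groups did not overlap, and SNI 34 and SNI 31 were lowest. The means were 77.4 ± 5.29 and 38.5 ± 14.4 RPKM (SD, n = 4 each), a log2 difference of 1.07.

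Slc18a2, the vesicular monoamine transporter, had 61.3, 61.4, 57.6 and 55.2 RPKM in the high-Tph2 libraries and 44.5, 44.0, 25.1 and 22.9 RPKM in the low-Tph2 libraries, in the same library order. The sets did not overlap and differed by 0.84 (log2). Slc17a8 had 9.70, 8.51, 7.2 and 6.81 RPKM in the high-Tph2 libraries and 4.88, 3.28, 2.26 and 1.58 RPKM in the low-Tph2 libraries. Its log2 difference of 1.37 was the largest of the serotonin lists. Slc22a3, a low-affinity monoamine transporter, averaged 2.94 ± 0.276 and 1.86 ± 0.570 RPKM in high- and low-Tph2 libraries (SD, n = 4 each), without overlap and below the fold limit at 0.58. Slc29a4, the plasma membrane monoamine transporter, stood at 7.82 to 12.6 RPKM in high-Tph2 and 8.09 to 10.6 RPKM in low-Tph2 libraries, which overlapped. All 5 transporters lay above 0, with a median of 0.84.

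**Figure D2:**
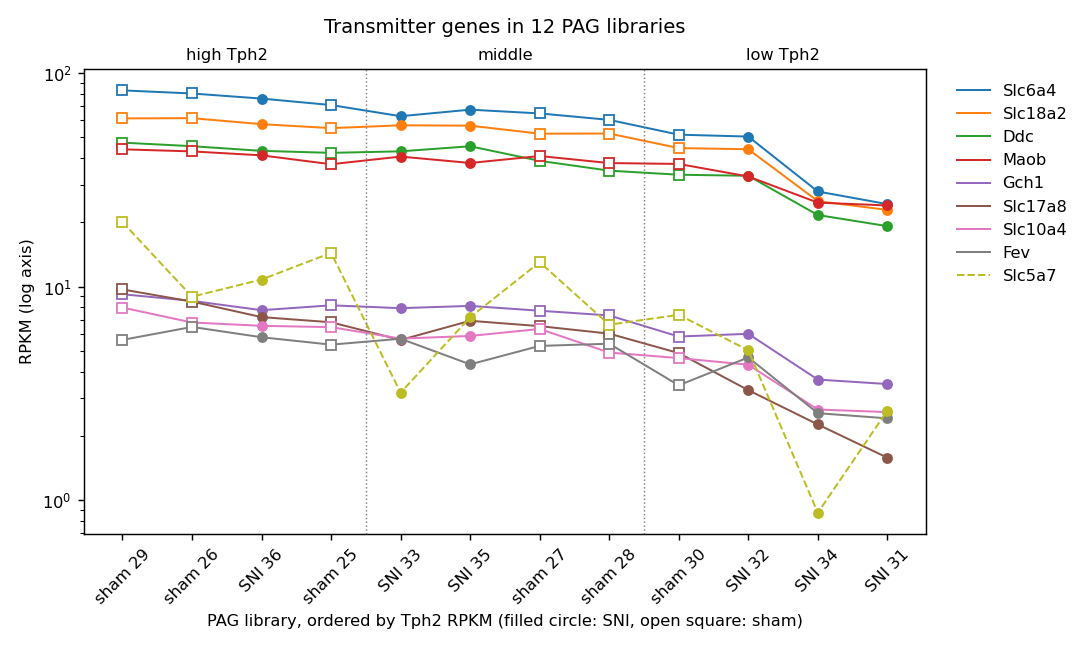
RPKM on a log axis (y axis) of 9 genes in the 12 PAG libraries, ordered by Tph2 from high to low (x axis); filled circles are SNI and open squares sham libraries. Slc6a4 is 82.9 RPKM in sham 29 and 24.3 RPKM in SNI 31, and the serotonin genes are lowest in SNI 34 and SNI 31, as is Slc5a7 (dashed), which varies more between the other libraries, with 3.19 RPKM in SNI 33 and 13 RPKM in sham 27.

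Of 7 synthesis and cofactor genes that passed the filter, 5 lay above 0 and 3 were called. Ddc, the decarboxylase that makes serotonin and also dopamine, had 47.2, 45.4, 43.2 and 42.3 RPKM in the high-Tph2 libraries sham 29, sham 26, SNI 36 and sham 25, against 33.4, 33, 21.6 and 19.2 RPKM in the low-Tph2 libraries sham 30, SNI 32, SNI 34 and SNI 31. The log2 difference was 0.76. Gch1, which starts the synthesis of the hydroxylase cofactor tetrahydrobiopterin, averaged 8.43 ± 0.620 against 4.75 ± 1.35 RPKM in high- and low-Tph2 libraries (SD, n = 4 each; log2 difference 0.80). Gchfr, the feedback regulator of the Gch1 enzyme, averaged 13.5 ± 2.61 and 7.92 ± 1.68 RPKM in those sets (0.74), with its highest value, 17.2 RPKM, in SNI 36. None of these 3 overlapped. The later cofactor genes Pts, Spr, Pcbd1 and Qdpr overlapped between the sets, with log2 differences of 0.08, -0.09, 0.11 and -0.18. Tph1, the hydroxylase of pineal and gut, did not pass the filter.

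Breakdown genes were called in 0 of 4 cases. Maob, a monoamine oxidase that serotonin neurons and astrocytes carry, had 43.9, 42.9, 41.2 and 37.4 RPKM in the high-Tph2 libraries and 37.5, 32.8, 24.7 and 24 RPKM in the low-Tph2 libraries, so that sham 30 just overlapped sham 25. Its log2 difference was 0.49. Maoa, the other monoamine oxidase, Aldh2 and Aldh1a1 overlapped, at 0.06, -0.05 and 0.27.

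Among 10 transcription factors, 8 lay above 0, and Fev was called. Fev had 5.63, 6.47, 5.79 and 5.35 RPKM in the high-Tph2 libraries and 3.45, 4.66, 2.56 and 2.42 RPKM in the low-Tph2 libraries. The sets did not overlap, at a log2 difference of 0.78. En1, a midbrain-hindbrain factor, averaged 3.02 ± 0.287 and 1.88 ± 0.489 RPKM in high- and low-Tph2 libraries (SD, n = 4 each), without overlap (0.58). Lmx1b averaged 2.56 ± 0.563 and 1.71 ± 0.338 RPKM (0.47) in those sets and overlapped, with 3.40 RPKM in SNI 36. Gata2 and Gata3, zinc-finger factors also used by GABA neurons of the midbrain, differed by 0.03 and 0.01. C130021I20Rik, a transcript on the opposite strand to Lmx1b, was called at 0.66. It starts 95 bases upstream of the RefSeq start of Lmx1b, inside the Lmx1b window above, and 682 bases upstream of the GENCODE start. The annotated genes thus do not overlap. Neither the gene annotation used for counting nor its strand setting is given in the sources used here, so reads of these neighbours may not be separate.

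Of 12 serotonin receptors that passed the filter, 8 lay above 0 and 0 were called, with a median of 0.04. Htr1a, the autoreceptor on serotonin cell bodies that is also made by other neurons, had 9.79 to 10.7 RPKM in high-Tph2 and 7.11 to 9.03 RPKM in low-Tph2 libraries, without overlap (0.34). Htr5b averaged 1.24 ± 0.223 and 0.743 ± 0.273 RPKM in high- and low-Tph2 libraries (SD, n = 4 each) and overlapped (0.50). Htr2c, a receptor of target neurons, stood at 28.2 ± 3.11 and 30.4 ± 2.63 RPKM in these sets (-0.11). Of 13 raphe peptides and receptors, 12 lay above 0 and 0 were called; Pdyn, the dynorphin precursor, was the 1 without overlap, at 3.46 to 3.95 RPKM in high-Tph2 and 2.41 to 3.10 RPKM in low-Tph2 libraries.

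**Figure D3:**
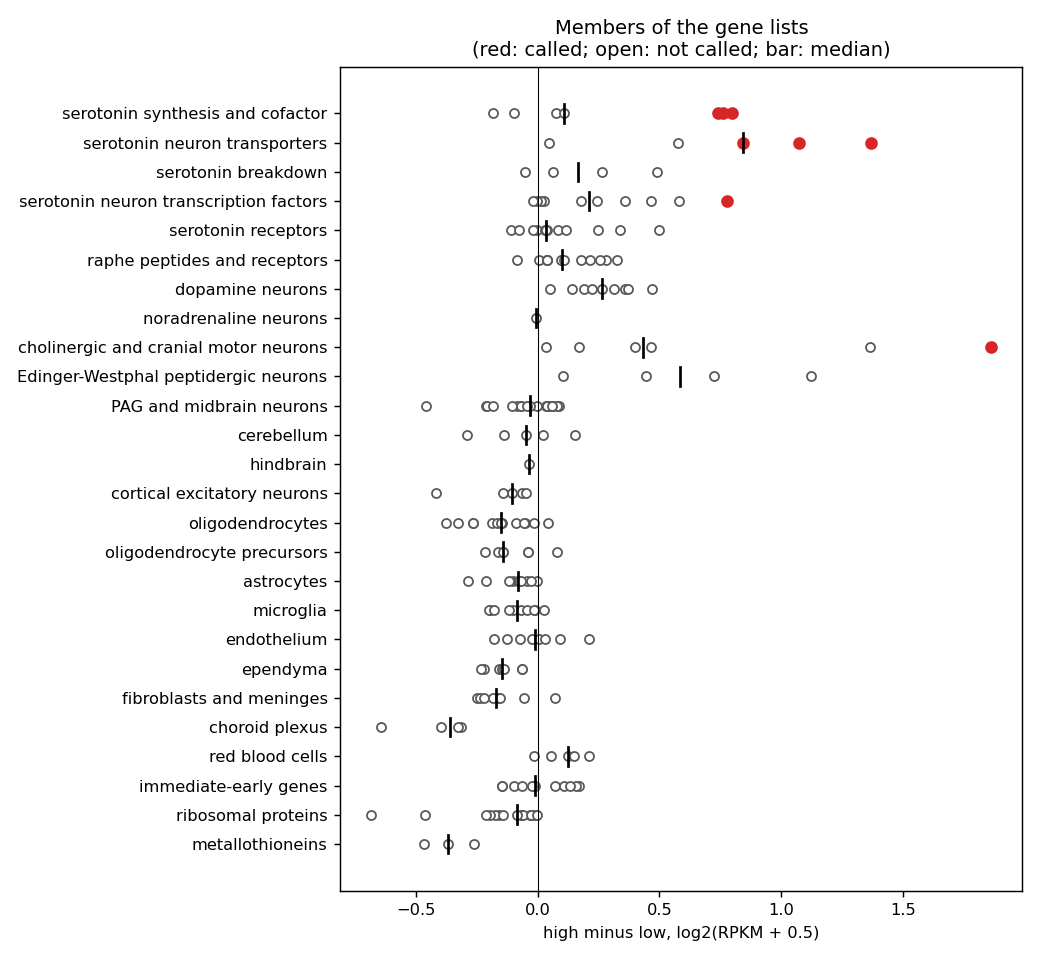
Difference of mean log2(RPKM + 0.5), high minus low Tph2 libraries (x axis), for each member of the gene lists (y axis); red points were called, open points not, and bars are list medians. The serotonin transporters have a median of 0.84, against -0.15 for oligodendrocytes and -0.08 for astrocytes.

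Pearson's r with Tph2 on the log2 scale, after subtracting the mean of each surgery group, was 0.996 for Slc18a2, 0.993 for Ddc, 0.991 for Slc6a4, 0.987 for Gch1, 0.976 for Maob and 0.968 for Slc17a8. These r are descriptions over 12 libraries that share depth and GC trends and include the 8 chosen at the ends. Within the 4 middle libraries Slc6a4 did not follow the Tph2 order, at 62.8, 67.3, 64.7 and 60.3 RPKM in SNI 33, SNI 35, sham 27 and sham 28. An r of at least 0.9 was seen for 25 of 13782 genes averaging 1 RPKM or more, which is 0.181%. Passing over predicted, antisense and small RNA genes, among them C130021I20Rik (r of 0.947), the 15 genes most like Tph2 (r of 0.920 to 0.996) also held Tnfrsf8, a receptor of the tumour necrosis factor family; Slc22a3; Slc10a4, a vesicle-associated transporter of monoamine and cholinergic neurons; Calcr, the calcitonin receptor; Irs4, an insulin receptor substrate; Cldn26; Lmx1b; Hs6st2, a heparan sulfate sulfotransferase; and Pcdha2, a protocadherin. Without SNI 31 and SNI 34, r was 0.986 for Slc18a2, 0.970 for Ddc, 0.955 for Slc6a4, 0.876 for Maob and 0.684 for Fev, which was 0.912 over 12 libraries. It was also lower without them for Irs4 (0.798, against 0.928 over 12 libraries), Hs6st2 (0.798, against 0.922), Lmx1b (0.749, against 0.923) and Cldn26 (0.700, against 0.924).

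Some ratios within a library varied less than the levels, and Maob was an exception. Slc18a2 over Slc6a4 lay between 0.739 and 0.940, a 1.27-fold range, while Slc18a2 itself ranged 2.69-fold. Ddc over Slc6a4 ranged 1.39-fold, and Ddc itself 2.46-fold. Maob over Slc6a4 ranged 1.87-fold, and Maob itself 1.83-fold. Without SNI 31 and SNI 34 the ranges were 1.23-fold for Slc18a2 over Slc6a4 and 1.4-fold for Slc18a2, and 1.21-fold for Ddc over Slc6a4 and 1.43-fold for Ddc. The ratios were not flat: Slc18a2 over Slc6a4 was lowest in sham 29 and highest in SNI 31, whereas Slc17a8 over Slc6a4 was highest in sham 29 at 0.117 and lowest in SNI 31 at 0.0650. Slc5a7 over Slc6a4 ranged 7.71-fold, and Slc5a7 itself 22.9-fold. Without SNI 31 and SNI 34 these ranges were 4.76-fold and 6.29-fold.

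Of the cholinergic and cranial motor neuron list, 1 of the 6 genes that passed the filter was called. Slc5a7, the choline transporter, had 20.04, 8.97, 10.8 and 14.4 RPKM in the high-Tph2 libraries sham 29, sham 26, SNI 36 and sham 25, against 7.38, 5.04, 0.874 and 2.63 RPKM in the low-Tph2 libraries sham 30, SNI 32, SNI 34 and SNI 31. At 1.86 it was the largest log2 difference of all called genes. Chat, which makes acetylcholine, had 6.16, 3.38, 4.79 and 5.45 RPKM in the high-Tph2 libraries and 3.56, 2.33, 0.361 and 1.36 RPKM in the low-Tph2 libraries, where sham 30 overlapped sham 26. Other called genes, on none of the lists, were Lhx4, a motor neuron factor (1.09), Calcb, a calcitonin gene-related peptide (0.93), Chodl (0.87) and Uts2, the urotensin precursor (0.81), both known in motor neurons, Lgals1, a galectin (0.71), Kcnj14, a potassium channel of motor neurons (0.67), and Slc10a4 (0.91). Uts2 rested on 4 to 24 reads per library in the 8 libraries.

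The r with Tph2 within surgery, over 12 libraries, was 0.965 for Slc10a4, 0.725 for Slc5a7, 0.735 for Lhx4, 0.554 for Chodl and 0.476 for Calcb. Without SNI 31 and SNI 34 it was 0.929, 0.475, 0.678, 0.519 and 0.530, in the same gene order. For Uts2 it was 0.587 over 12 libraries and 0.833 without SNI 31 and SNI 34. The r with Slc5a7 over 12 libraries was 0.832 for Slc10a4, 0.952 for Lhx4, 0.978 for Chat, 0.841 for Chodl and 0.734 for Calcb. Slc5a7 stood at 3.19 RPKM in SNI 33 and 13 RPKM in sham 27, although both libraries lay in the middle by Tph2. Of the cholinergic list, 9 genes were in the table, and all 6 that passed the filter lay above 0, with a median of 0.43; Slc18a3 was not analysed here and Mnx1 was listed at 0 in all 8 libraries. Chat order shared 3 of the high-Tph2 and 2 of the low-Tph2 libraries. All 4 Edinger-Westphal genes lay above 0, with a median of 0.59 (0.77 with surgery as a term), and 0 were called. Cartpt and Ucn, peptides of that nucleus, overlapped: Cartpt had 327, 64.2, 117 and 359 RPKM in the high-Tph2 libraries and 60.2, 81.0, 122 and 65.1 RPKM in the low-Tph2 libraries. The part of these neighbouring cells in the serotonin result was not tested.

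Lars2 and 2 transcripts followed neither Tph2 nor Slc5a7. Lars2, a mitochondrial leucyl-tRNA synthetase, had 52.5 RPKM in the high-Tph2 library sham 26 and 94.9 RPKM in the middle library sham 28, against 14.7 to 24.9 RPKM in the other 10 PAG libraries. Lars2 (0.68) and the transcripts Gm26924 (0.74) and mmu-mir-6236 (1.01) were called higher, but within the sham libraries their differences were -0.18, -0.13 and -0.081. Their r with Tph2 was 0.0953, 0.227 and 0.130, and Lars2 and mmu-mir-6236 had r of 0.936 and 0.961 with Gm26924. The 4 genes called lower were small RNAs, namely Gm26493 (-0.72), Mir208a (-0.61), Mir3060 (-0.60) and Gm22442 (-0.59), named here after their values were seen; poly-A libraries hold few reads of such short genes, and these had 3 to 57 reads per library.

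Markers of other cells gave 0 calls outside the cholinergic list. All 9 dopamine neuron genes that passed the filter lay above 0, with a median of 0.27. Of these, 2 lay wholly above, among them Foxa1 (0.47), against 1.24% of all genes. Th, the dopamine synthesis enzyme, stood at 7.95 to 10.5 RPKM in high-Tph2 and 6.72 to 9.34 RPKM in low-Tph2 libraries. Of the noradrenaline markers, Dbh stood at 0.147 to 1.03 RPKM in high-Tph2 and 0.0386 to 1.60 RPKM in low-Tph2 libraries. Among 19 PAG and midbrain neuron genes, 8 lay above and 11 below 0 (median -0.03), and Tac2, a tachykinin, was the 1 gene wholly lower, at 0.640 to 1.13 RPKM in high-Tph2 and 1.26 to 1.53 RPKM in low-Tph2 libraries. Slc17a6, the glutamate transporter of PAG neurons, stood at 110 ± 9.07 and 115 ± 6.94 RPKM in high- and low-Tph2 libraries (SD, n = 4 each), and Gad1, the GABA enzyme, at 57.8 ± 1.30 and 61.9 ± 9.48 RPKM. Of the glial genes, 1 of 13 oligodendrocyte, 0 of 10 astrocyte, 1 of 10 microglia and 0 of 7 ependyma genes lay above 0, with medians of -0.15, -0.08, -0.08 and -0.15. With surgery as a term the medians were -0.02, -0.12, 0.05 and -0.14, so that microglia turned sign, as did oligodendrocyte precursors (-0.14, and 0.07 with the term). Ribosomal protein genes lay above 0 in 0 of 15 cases, metallothioneins in 0 of 3 (median -0.37, and 0.50 with surgery as a term), cortical excitatory neuron genes in 0 of 5, oligodendrocyte precursor genes in 1 of 7, fibroblast and meninges genes in 1 of 8 and choroid plexus genes in 0 of 4. Endothelial genes lay above 0 in 4 of 8 cases, red blood cell genes in 4 of 5, immediate-early genes in 5 of 11 and cerebellum genes in 2 of 5. Ttr, the choroid plexus transthyretin, was 748 RPKM in sham 27, 308 RPKM in SNI 31 and at most 15.2 RPKM elsewhere in PAG. Of the 9 hindbrain genes, 8 were never above 0.1 RPKM.

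Within each surgery group the differences of the serotonin genes printed here kept their direction, at unequal size. These sets were again picked by Tph2 and share libraries with the sets above, so the values are a description and not separate support. Within SNI, 3 libraries of high Tph2 (36, 33 and 35) minus 3 of low Tph2 (32, 34 and 31, which include both lowest libraries) gave 1.06 for Slc6a4, 0.95 for Slc18a2, 1.34 for Slc17a8, 0.86 for Ddc and 0.68 for Fev. Within sham, 29, 26 and 25 minus 27, 28 and 30 gave 0.41, 0.26, 0.48, 0.33 and 0.30 for the same genes, and 0 of the 7 serotonin calls were made there, against 6 (all but Fev) within SNI. With surgery as a term in the 8 libraries, Slc6a4 differed by 0.90 and Slc18a2 by 0.68, and all 7 genes were called. The difference between the surgery groups was not tested, and the Tph2 range was wider in SNI libraries.

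**Figure D4:**
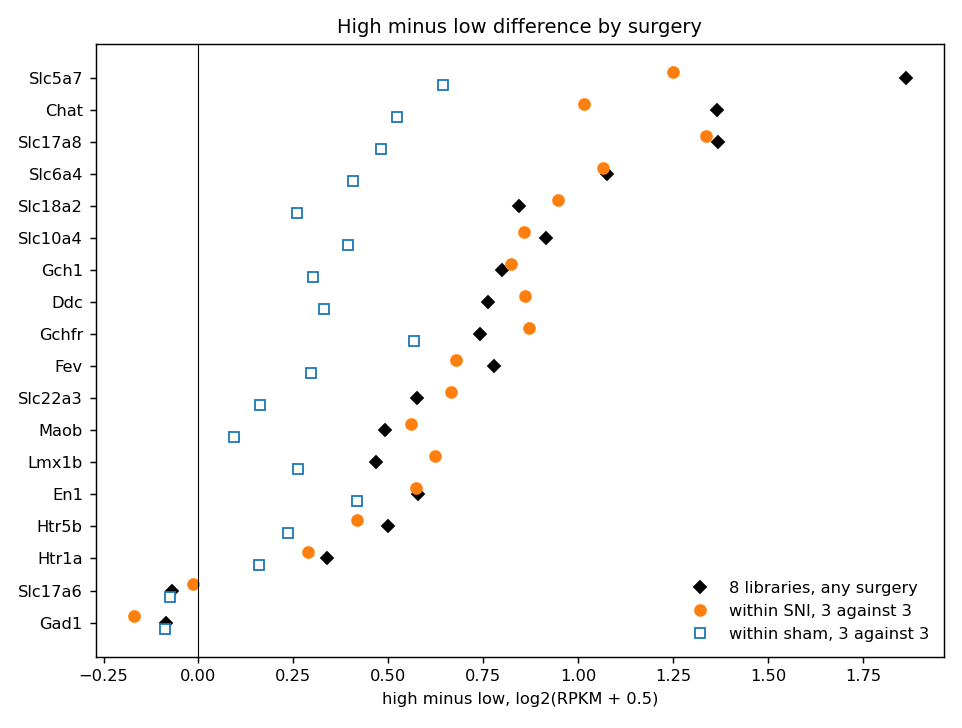
Difference of mean log2(RPKM + 0.5), high minus low Tph2 libraries (x axis), for 18 genes (y axis); diamonds are the 8 libraries of any surgery, filled circles 3 against 3 within SNI and open squares 3 against 3 within sham. Slc6a4 lies at 1.07, 1.06 and 0.41.

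SNI against sham, a labelled contrast that the ranking did not use, was tested by limma over the 12 PAG libraries with Benjamini-Hochberg adjustment. Of 15591 genes, 3360 (21.6%) rose and 2135 (13.7%) fell in SNI at an adjusted p under 0.05. The GC slope was negative in all sham and positive in all SNI libraries of PAG, so surgery and GC trend cannot be told apart here. With the GC trend removed, 1197 genes rose and 898 fell. Of 38 serotonin list genes, 4 rose (Spr, Aldh2, Gata2 and Gata3) and 4 fell (Pts, Pcbd1, Maoa and Htr5a); in the model of all 36 libraries 3 rose and 6 fell, and with the GC trend removed 3 rose and 5 fell. Slc6a4 averaged 51.4 ± 21.3 RPKM in SNI and 68.4 ± 12 RPKM in sham libraries (SD, n = 6 each), a log2 change of -0.51 (SE 0.26, limma adjusted p = 0.134, 95% interval -1.06 to 0.04). Slc18a2 changed by -0.40 (limma adjusted p = 0.176), Slc17a8 by -0.74 (adjusted p = 0.0679), Ddc by -0.30 (adjusted p = 0.261), Gch1 by -0.38 (adjusted p = 0.149) and Fev by -0.33 (adjusted p = 0.213), so none of these 6 passed. Each was nearer 0 without SNI 31, at -0.32 for Slc6a4, -0.23 for Slc18a2, -0.52 for Slc17a8, -0.15 for Ddc, -0.24 for Gch1 and -0.20 for Fev. Each was further from 0 without SNI 36, at -0.65 for Slc6a4 and -0.90 for Slc17a8. Slc17a8 passed the threshold without SNI 33, SNI 35 or SNI 36, with quantile normalization and with voom on recovered reads. A p above the threshold does not show that the groups are alike. The 16 protein-coding genes called higher with Tph2 were picked from a contrast of 3 sham and 1 SNI against 1 sham and 3 SNI libraries, so their SNI values are not independent of the choice. Of them 0 rose and 2 fell in SNI, near the background of 13.7%: Slc5a7 by 1.36 on the log2 scale (limma adjusted p = 0.0245) and Chodl by 0.60 (limma adjusted p = 0.0349). Both calls were lost without SNI 31 or without sham 29, at -1.26 and -1.19 for Slc5a7 and -0.55 and -0.48 for Chodl, with the GC trend removed and with no filter; Chodl was lost without any of 7 of the 12 libraries. In the model of all 36 libraries Slc6a4, Slc17a8, Gch1 and Maob passed the threshold at the same log2 changes. That model takes 1 estimate of spread from all regions, and Slc6a4 averaged 0.0421 RPKM in sham NAc and 0.0653 RPKM in sham PFC. Its p therefore does not measure the spread between PAG libraries alone, and these passes are not separate support for a change in SNI. With the GC trend removed Fev changed by -0.85 and passed.

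PAG was also compared with both forebrain regions in sham libraries, by limma in 1 model of all 36 libraries. At an adjusted p under 0.05 and at least 2-fold over NAc and over PFC, 673 of 15638 genes (4.3%) were higher in PAG. Of 37 serotonin list genes tested, 18 were higher (48.6%). Such a share was not particular to the serotonin lists. It was 57.1% of 7 dopamine neuron genes, 44.4% of 18 PAG and midbrain neuron genes and 100% of 6 ependyma genes. For microglia it was 0 of 10 genes and for endothelium 0 of 8. Slc6a4 averaged 68.4 RPKM in PAG, against 0.0653 RPKM in PFC and 0.0421 RPKM in NAc. Fev, at 5.26 RPKM in PAG, stood at 0.0074 RPKM in PFC and 0.0055 RPKM in NAc. Of the 15 genes most like Tph2, 10 were higher in PAG (66.7%), and of the 16 protein-coding called genes 14 were tested and 7 were higher: Slc6a4, Slc18a2, Gch1, Fev, Ddc, Gchfr and Kcnj14. Lhx4 and Calcb were not tested there. In sham libraries Lhx4 averaged 1.42 RPKM in PAG, 0.0049 RPKM in PFC and 0.0031 RPKM in NAc. Calcb averaged 1.18, 0.117 and 0.0331 RPKM in the same regions. On the log2 scale, PAG minus PFC and PAG minus NAc were 2.37 and 0.55 for Slc17a8, 3.59 and 0.54 for Slc10a4, and 3.64 and -0.07 for Slc5a7; NAc has its own cholinergic interneurons.

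**Figure D5:**
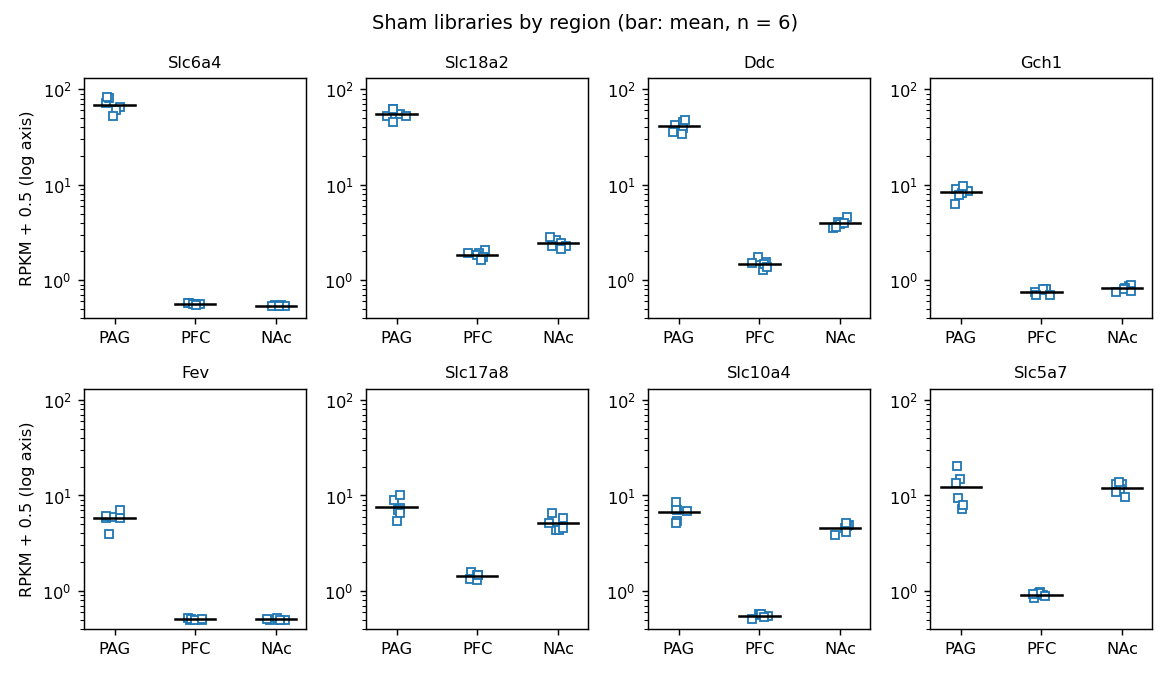
RPKM + 0.5 on a log axis (y axis) of 8 genes in sham libraries of PAG, PFC and NAc (x axis), n = 6 each; squares are libraries and bars means. Slc6a4 averages 68.4 RPKM in PAG and under 0.1 RPKM in both forebrain regions, while Slc5a7 in NAc reaches the PAG level.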

How the data were processed

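Polyadenylated RNA was made into TruSeq libraries, per the labels' protocols. The authors deposited RPKM values for 31554 genes; TopHat2, HTSeq and mm10 are named, per the submitters' processing notes, with roles, versions and strand setting not given in the sources used here. Multiplied by length and depth, 100% of values gave whole reads within 0.001, at 27.6 to 64.9 M reads per library. A gene of 1 kb at 0.5 RPKM had 14.57 reads in the shallowest library of the high and low sets. No 2 PAG libraries were copies: over 30 pairs within groups, chi-square per degree of freedom was at least 3.89.

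The RPKM values were taken as log2(RPKM + 0.5), which understates folds of low genes. Tests used limma 3.58.1 (R 4.3.3) with a trend, two-sided, adjusted over all genes tested; other values came from Python 3.11.15. Voom on recovered reads called 3391 genes higher and 2272 lower in SNI. GC content (GENCODE M21) was had for 98.9% of genes tested. The scripts were tested on simulated data.

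Named genes were the 15 largest called differences in each direction, passing over predicted and small RNA genes, the serotonin lists, up to 4 members of each other list and the 15 genes most like Tph2; some predicted and small RNA genes were named after their values were seen. A list member is not reported here. The members and lists were chosen with earlier results of these data known. Alternatives were pseudocount, filter, scaling, number of libraries, surgery, GC trend, fold limit and each library left out. The alternatives that leave out SNI 31 and SNI 34 together were added after seeing the data.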

Additional observations from a re-analysis of the deposited data

Results flagged for a closer look

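Of 104 groups of 6 libraries (52 genes in SNI and sham PAG libraries), 3 had a library far from the rest, where chance flags about 1 in 20 groups. Aldh2, an aldehyde dehydrogenase, was highest in SNI 36 at 18.68 RPKM. Htr1f was lowest in SNI 31 at 0.5025 RPKM. Htr6 was highest in SNI 35 at 0.6965 RPKM.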

How the results depend on the processing

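Genes called higher with Tph2 numbered 27, of which 16 were protein coding and 7 in the serotonin lists, and 4 genes were called lower. Leaving out each library gave 28 to 35 higher, 16 to 19 protein coding, 7 to 10 in the serotonin lists and 5 to 23 lower. The 7 serotonin calls were shared by each of these fits. Removing a library cannot create overlap, so only the fold limit could take a call away. With 3 against 3 libraries there were 42 higher, 11 in the serotonin lists and 27 lower; with 6 against 6 there were 5, of which 4 protein coding and 3 in the serotonin lists, and 0 lower. With surgery as a term there were 47 higher, 29 protein coding and 23 lower. Within sham there were 13 higher, 2 protein coding, 0 in the serotonin lists and 28 lower; within SNI there were 10 protein coding and 26 lower. A lower fold limit gave 56 higher, 36 protein coding and 18 lower; a fold of 2 gave 5, 4 protein coding, 2 in the serotonin lists and 0 lower. A mean of at least 2 RPKM gave 15 higher and 2 lower. Pseudocounts of 0.1 and 1 RPKM gave 9 and 1 lower, and no filter 11. Without SNI 31 and SNI 34, 2 serotonin list genes were higher and 19 genes lower. Within sham the differences of Lars2, mmu-mir-6236 and Gm26924 turned to -0.18, -0.081 and -0.13, and within SNI that of Gm25057 to -0.15.

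In the SNI comparison, 3360 genes rose and 2135 fell. Removing the GC trend gave 1197 and 898. The model of all 36 libraries gave 1006 lower, and quantile normalization 4022 lower with 7 serotonin list genes among them, against 4. Leaving out each library gave 2928 to 3491 higher and 1302 to 3039 lower, with 4 to 5 and 3 to 6 serotonin list genes. The lowest count, 1302, was without sham 28. For PAG against forebrain, a mean of at least 2 RPKM gave 387 genes, against 673; leaving out each library gave 668 to 686, with 18 serotonin list genes each time. The cause of these changes was not tested. Depth limits genes of few reads, such as Uts2 and the small RNAs. No paired analysis was possible because the labels give running library numbers and no animal identity. Whether PAG, PFC and NAc libraries came from the same animals is not given, and the region comparison treated them as independent.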
